A study of Mus musculus with 12 samples.

Results

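Type I interferon-stimulated genes were described in colonic epithelium of mice with and without Nfkb2, before and after a short exposure to dextran sulfate sodium (DSS). The group was a fixed list of 39 gene symbols, matched to the mouse Ensembl identifiers of the count tables without their version, out of 46517 identifiers in each table. The list was chosen with earlier results of these data known, so its counts beside those of all genes are descriptions. All 39 were found, and all 39 passed the filter on low counts that left 12522 genes to be tested, with 47 to 8399 reads per gene and sample. Epithelial cells were stripped with EDTA from the colons of C57BL/6 mice 7 to 9 weeks old that were wild type (WT) or Nfkb2-/- (knockout, KO), and RNA was sequenced in 3 samples of each of 4 groups: untreated WT, WT given DSS for 48 h, untreated KO and KO given DSS for 48 h. About 90% of such cells were positive for the epithelial surface protein EpCAM and negative for the leukocyte protein CD45.2, per the labels' protocols, and were not sorted further so far as the labels say. DSS is a sulfated polysaccharide that injures the colonic epithelium, and Nfkb2 encodes the NF-kB precursor p100, from which the p52 subunit is cut. The labels give no dose of DSS and no description of the Nfkb2 allele, and the deletion is not said to be limited to the epithelium. The 3 samples of a group are called biological replicates in the series' design text, whether animals were pooled is not stated, and p-values measure the spread between these samples.

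Type I interferons bind a receptor of the subunits Ifnar1 and Ifnar2, whose kinases Jak1 and Tyk2 phosphorylate Stat2 among other factors. Stat2 joins Irf9 in a complex that binds interferon-stimulated response elements (ISREs) and switches on a large set of genes, among them sensors of viral nucleic acid, antiviral effectors, the ubiquitin-like modifier Isg15 with its enzymes, and Irf7, which feeds back on interferon production. In gut epithelium the same genes also respond to type III interferons, and many keep a basal level without infection.

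Some promoters are given first, because the ISRE is the element through which the interferon-activated complex acts on such genes. RefSeq promoter windows of GRCm38.p6, from 250 bases before to 50 bases after the annotated start, were at hand for 29 of the 39 genes; those of Mx1, Mx2, Ifi27, Parp14, Parp9, Usp18, Oas2, Rtp4, Zbp1 and Dhx58 were not used here. Both strands were searched for the ISRE letters GAAANNGAAA, where N is any base. The last 150 bases before the start are printed 5′ to 3′ on the gene's strand for 6 genes with a match and 3 without, and capitals mark whole matches, which overlap in Isg15, Oas1a and Oas1g and run on the opposite strand in Ifit1, Ifit3 and Rsad2. Coordinates are those of GRCm38.p6.
Isg15 (chr4:156200819-156200968, minus strand): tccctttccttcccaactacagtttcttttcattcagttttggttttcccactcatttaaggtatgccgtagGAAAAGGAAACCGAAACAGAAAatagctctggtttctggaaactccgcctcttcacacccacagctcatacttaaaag
Ifit1 (chr19:34640739-34640888, plus strand): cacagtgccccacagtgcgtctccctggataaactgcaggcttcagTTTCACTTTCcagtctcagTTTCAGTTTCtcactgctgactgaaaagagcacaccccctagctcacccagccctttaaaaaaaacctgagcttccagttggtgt
Ifit3 (chr19:34583379-34583528, plus strand): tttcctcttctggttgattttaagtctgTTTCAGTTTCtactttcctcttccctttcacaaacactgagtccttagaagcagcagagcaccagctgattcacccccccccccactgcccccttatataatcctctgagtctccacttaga
Rsad2 (chr12:26456453-26456602, minus strand): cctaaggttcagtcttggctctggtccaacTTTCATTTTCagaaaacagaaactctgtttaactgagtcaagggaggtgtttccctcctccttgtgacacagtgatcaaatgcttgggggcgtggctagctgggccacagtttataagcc
Oas1a (chr5:120907526-120907675, minus strand): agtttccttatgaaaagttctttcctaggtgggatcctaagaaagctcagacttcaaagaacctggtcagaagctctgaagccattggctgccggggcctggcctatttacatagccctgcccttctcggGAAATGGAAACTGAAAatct
Oas1g (chr5:120887614-120887763, minus strand): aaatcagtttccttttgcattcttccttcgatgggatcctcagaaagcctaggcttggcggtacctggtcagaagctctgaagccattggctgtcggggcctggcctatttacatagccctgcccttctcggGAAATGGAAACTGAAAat
Cmpk2 (chr12:26469065-26469214, plus strand): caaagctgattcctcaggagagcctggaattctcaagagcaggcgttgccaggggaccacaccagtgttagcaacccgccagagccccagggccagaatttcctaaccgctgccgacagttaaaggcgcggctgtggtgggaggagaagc
Uba7 (chr9:107975417-107975566, plus strand): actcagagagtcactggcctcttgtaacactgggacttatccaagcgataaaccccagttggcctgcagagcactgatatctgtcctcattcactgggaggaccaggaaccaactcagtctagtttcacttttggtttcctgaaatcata
Dtx3l (chr16:35939028-35939177, minus strand): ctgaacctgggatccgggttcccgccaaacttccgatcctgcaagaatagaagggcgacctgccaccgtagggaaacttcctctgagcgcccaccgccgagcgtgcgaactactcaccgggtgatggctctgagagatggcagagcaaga

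At least 1 ISRE match was found in the windows of 13 of the 29 interferon-stimulated genes, or 44.8%, against 3.99% of 27025 genes in the same RefSeq table. The 13 were Bst2, Ddx58, Eif2ak2, Ifih1, Ifit1, Ifit3, Isg15, Oas1a, Oas1g, Oas3, Rsad2, Stat2 and Trim30a, and 7 of them held 2 or more. Matches were counted over all windows of a gene. Trim30a had windows at different start sites, so its matches may lie in different windows. Isg15 held 3 overlapping matches between 78 and 57 bases before its start. Of the printed genes, Ifit3 held a further match from 156 to 147 bases before the start. The edge of the printed stretch cuts it, so it is not in capitals. The letters TTCNNNGAA of the element bound by STAT dimers (GAS), which read the same on both strands, were found in 5 of the 29 genes, or 17.2%, against 9.55% of all genes. The NF-kB consensus, searched by name on both strands, was found in 4 of the 29, or 13.8%, against 9.55% of all genes. The 4 were Bst2, Ifit2, Oas3 and Oasl1. The GAS match of Bst2 overlaps its NF-kB match and its first ISRE match, and the GAS match of Ifit2 overlaps its NF-kB match. These matches describe letters in a window and are not measured binding sites.

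**Figure D1:**
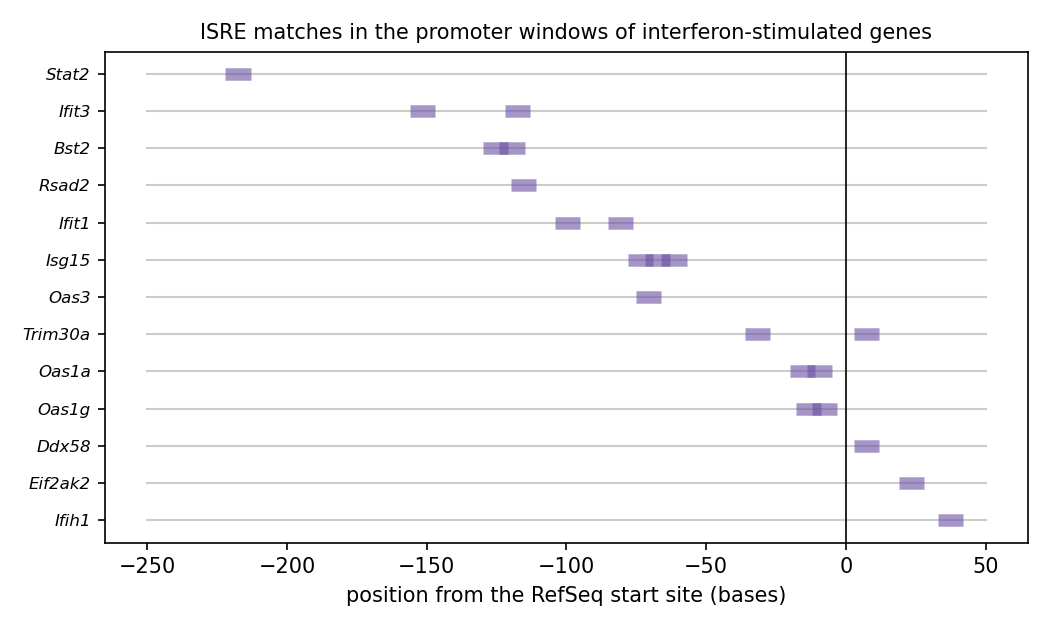
Positions of ISRE matches in the promoter windows of the 13 interferon-stimulated genes that held one. The x axis is the distance in bases from the RefSeq start site (0), from 250 before to 50 after, and each bar is 1 match. In 10 genes a match lies before the start, the farthest in Stat2, while those of Ddx58, Eif2ak2 and Ifih1 and the second of Trim30a lie after it. Trim30a had windows at different start sites, and each position is counted from the start of the window that holds the match.

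Total counts were 5595909 to 8117740 per sample, and 3 reads correspond to 0.356 to 0.529 CPM (read counts relative to the library total, which is scaled by the trimmed mean of M-values). The targeted gene Nfkb2 was lower in both KO groups, at 14.3 ± 2.89 and 17.4 ± 2.04 CPM, than in untreated WT at 36.8 ± 6.50 and WT under DSS at 42.4 ± 3.33 (SD, n = 3), a log2 difference of -1.33 over 6 against 6 samples (exact two-sided permutation p = 0.00216, the smallest that 924 rearrangements allow). Its remaining reads were not assigned to exons here. The 10 epithelial markers summed to 32587 to 40100 CPM in untreated WT, 25755 to 27128 in WT under DSS, 27779 to 29418 in untreated KO and 22627 to 24619 in KO under DSS. The 16 leukocyte markers summed to 25.0 to 46.6, 74.0 to 76.5, 83.8 to 99.0 and 121 to 170 CPM in the same order, and 13 of them passed the filter on low counts. Of these, Adgre1 had no read in untreated WT. The 6 stromal and endothelial markers summed to 2.16 to 7.04, 4.39 to 6.06, 6.85 to 11.6 and 14.7 to 19.1 CPM, with Col1a1, Col1a2, Col3a1 and Dcn at 0 in WT under DSS. The 5 markers of plasmacytoid dendritic cells, which are strong producers of type I interferon, summed to 404 to 655, 553 to 613, 506 to 657 and 669 to 904 CPM, highest in KO under DSS without overlap, and their part in the results was not tested. Nearly all of that sum was Klk1 and Irf8, while over the 12 samples Siglech had 29 reads, 15 of them in 1 KO sample under DSS, Ccr9 had 52 and Cox6a2 had 3. The labels number the WT libraries first and the KO libraries after them, so library order and genotype cannot be told apart.

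Across the 39 genes, the mean level was highest in KO under DSS, followed by untreated WT. The mean log2 CPM of the 39 was 7.04, 7.00 and 6.82 in the 3 untreated WT samples and 6.50, 6.51 and 6.58 in WT under DSS. It was 6.59, 6.65 and 6.53 in untreated KO and 7.36, 7.36 and 7.37 in KO under DSS. WT under DSS and untreated KO overlapped, and the other groups did not. KO under DSS had the highest of the 4 group means for 33 of the 39 genes (28.3% of all tested genes), and WT under DSS the lowest for 24 (23.2% of all). Untreated KO had the lowest mean for 15 (23.3% of all), and untreated WT the highest for Lgals3bp, Oas1a, Oas1g and Oas3, 4 genes (26.0% of all). Per kilobase of exon (GENCODE M21 gene models on GRCm38, whose identifiers and whole-gene coordinates are used throughout), mean levels over the 12 samples ran from 4.73 RPKM for Herc6 to 356 for Lgals3bp, with a median of 32.0 RPKM. Lgals3bp was followed by Oas1a at 188 and Irf7 at 148, and Mx2 at 4.77 and Xaf1 at 7.95 stood next to Herc6.

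**Figure D2:**
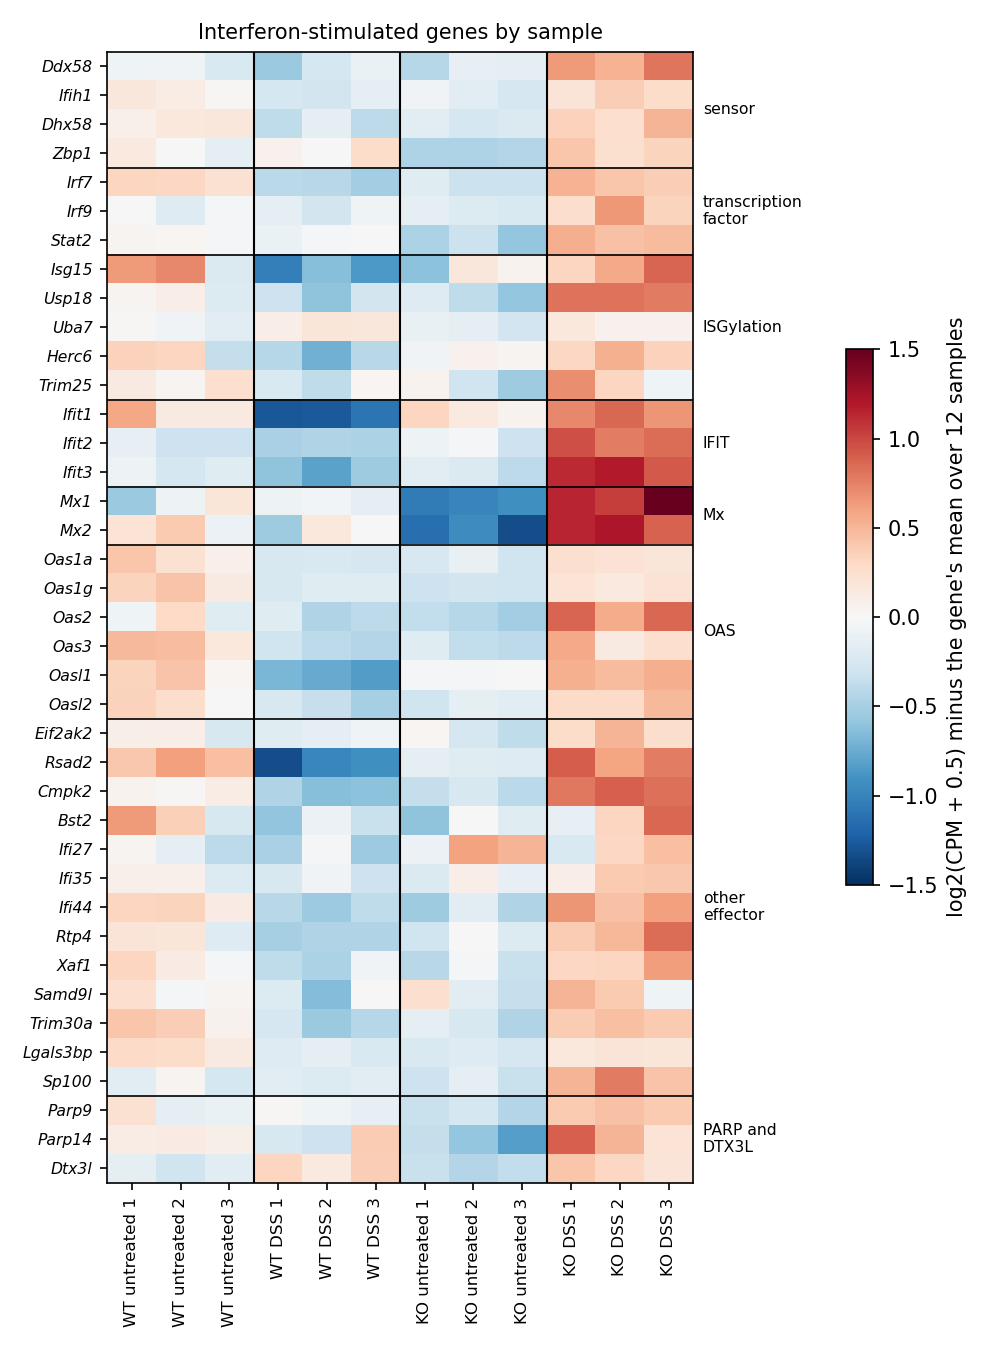
Level of each of the 39 interferon-stimulated genes (rows, grouped by role) in each of the 12 samples (columns), as log2(CPM + 0.5) minus the gene's mean over the 12 samples. Red is above and blue below that mean; the 3 KO samples under DSS are red in most rows, and WT under DSS and untreated KO are mostly blue.

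DSS in WT mice was followed by lower levels of many of these genes. Of the 39, 17 fell and 1, Dtx3l, rose by edgeR's quasi-likelihood test with Benjamini-Hochberg adjustment over all genes at 0.05, while 3.50% of all tested genes fell and 2.80% rose. The median log2 fold change was -0.38 over the 39 and 0.0063 over all genes, and 35 of the 39 values were negative. Rsad2, which makes an antiviral nucleotide, fell 3.00-fold, Ifit1, which binds viral RNA, 2.85-fold, Isg15 2.48-fold and Oasl1 2.05-fold. The 3 WT samples under DSS lay below the 3 untreated ones for 23 genes (9.97% of all tested genes), and below all 9 other samples for Cmpk2, Herc6, Ifit1, Ifit2, Ifit3, Irf7, Isg15, Oasl1, Rsad2 and Rtp4, 10 genes (1.65% of all). Leukocyte markers summed higher under DSS than without it in WT, with no overlap, and with their mean level as a covariate Oasl1, Oasl2 and Rtp4 passed, all 3 lower. Over the 18 called genes the median log2 change was -0.65 without and -1.10 with the covariate, no sign turned, and the median SE rose from 0.12 to 0.30; Ifit3 went from -0.47 to -0.24, while Isg15 went from -1.31 to -2.71 and Rtp4 from -0.53 to -1.47, and 9 genes grew over 1.5 times. In bulk samples fewer cells of a type and less RNA per cell cannot be told apart. The calls of Dhx58, Dtx3l, Herc6, Ifit3, Isg15 and Rtp4 were lost when 1 or another single library was left out, and the other 12 were not. Over all 19 alternative fits, the call of Ifit3 was lost in 15 and that of Herc6 in 14.

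DSS in KO mice was followed by higher levels of most of them. Of the 39, 31 rose and 0 fell by the same edgeR test (37 and 0 at an unadjusted p under 0.05, 32 and 0 by DESeq2), against 1.88% of all genes that rose and 2.04% that fell. The median log2 fold change was 0.69 over the 39 and 0.015 over all genes. The Mx GTPases led, with Mx2 4.91-fold and Mx1 4.78-fold higher, followed by Ifit3 at 2.54-fold, Oas2 at 2.32-fold, the Isg15 protease Usp18 at 2.27-fold and the mitochondrial nucleotide kinase Cmpk2 at 2.27-fold. Groups did not overlap for 34 genes with the DSS samples higher (12% of all). The 3 KO samples under DSS lay above all 9 other samples for 20 genes (3.26% of all), and above the 3 untreated WT samples for 25 (12.9% of all). Leukocyte markers summed higher with DSS in KO too, without overlap, and with their mean level as a covariate 8 of the 31 passed, namely Irf7, Stat2, Ifit2, Ifit3, Mx1, Mx2, Cmpk2 and Dtx3l. Over the 31 the median log2 change was 0.75 without and 0.67 with the covariate, and the median SE 0.12 and 0.19. The changes of 7 genes became over 1.5 times smaller, Oas1a at 0.28, Oas1g at 0.32, Oasl1 at 0.27, Oasl2 at 0.20, Rtp4 at 0.22, Trim30a at 0.44 and Xaf1 at 0.27. Leaving out single libraries ended the calls of Eif2ak2, Ifih1, Ifit1, Irf9, Oas1a, Oas1g, Oas3, Oasl1, Oasl2, Trim30a and Xaf1, while 20 kept theirs.

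Without DSS, KO epithelium had lower levels of part of the list. Of the 39, 12 were lower and 0 higher by edgeR (22 lower and 1, Ifi27, higher at an unadjusted p under 0.05; 18 lower and 0 higher by DESeq2), against 1.76% of all genes lower and 1.72% higher. The 12 were Mx2, 2.59-fold lower, Mx1, Oas3, Rsad2, Ifi44, Oas1g, Irf7, Trim30a, Zbp1, Stat2, Oas1a and Lgals3bp. The median log2 difference was -0.38 over the 39 and -0.0015 over all genes. KO samples lay below the WT samples without overlap for 22 genes (9.53% of all), while the leukocyte markers summed higher in the KO samples. With the leukocyte covariate 0 of the 12 passed (17 of the 39 had an unadjusted p under 0.05), with a median log2 difference over the 12 of -0.80 against -0.58 without it and a median SE of 0.27 against 0.11. Of these, Ifi44 at -1.07, Trim30a at -0.95 and Oas1a at -0.72 were over 1.5 times larger in size. In other fits 4 passed when the fit held the 2 untreated groups alone, and 6 and 7 passed without KO untreated replicate 3 and KO untreated replicate 1. Ifi44, Irf7, Lgals3bp, Mx2, Oas1g and Oas3 kept their calls when any single library was left out.

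Under DSS, the order of the genotypes was the opposite. Of the 39, 29 were higher and 0 lower in KO by edgeR (36 and 0 at an unadjusted p under 0.05, 31 and 0 by DESeq2), against 1.77% of all genes higher and 1.34% lower. The median log2 difference was 0.73 over the 39 and 0.0027 over all genes. Ifit1 was 3.90-fold, Rsad2 3.62-fold, Ifit3 3.33-fold, Isg15 2.80-fold, Cmpk2 2.67-fold and Ifit2 2.52-fold higher in KO. The groups were apart, KO higher, for 31 genes (11.8% of all). The leukocyte sums of these groups were apart as well, 121 to 170 CPM in KO against 74.0 to 76.5 in WT, and with the covariate 9 genes passed: Irf7, Usp18, Ifit1, Ifit2, Ifit3, Oasl1, Rsad2, Cmpk2 and Ifi44. Over the 29 the median log2 difference was 0.93 without and 0.78 with it, and the median SE 0.12 and 0.17; Isg15 at 0.83, Oas1g at 0.25, Oasl2 at 0.42, Rtp4 at 0.63 and Xaf1 at 0.39 became over 1.5 times smaller. Without WT DSS replicate 1, 18 passed, and leaving out 1 or another library ended the calls of Herc6, Ifih1, Irf9, Isg15, Lgals3bp, Mx2, Oas1a, Oas1g, Parp9, Stat2 and Xaf1.

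The change under DSS itself differed between the genotypes. The interaction, which is the log2 change under DSS in KO minus that in WT, was positive for all 39 genes, with a median of 1.12, against -0.0066 over all genes. It passed for 30 genes, all positive, and for 0 negative (36 and 0 at an unadjusted p under 0.05, 32 and 0 by DESeq2), against 1.17% of all genes with a positive and 0.527% with a negative value. The largest were Mx2 at 2.58 ± 0.33, Rsad2 at 2.53 ± 0.23, Mx1 at 2.22 ± 0.27, Ifit1 at 2.08 ± 0.19 and Isg15 at 2.03 ± 0.40 (log2 ± SE). With the leukocyte covariate 26 of the 39 passed, 25 of them among the 30, and the calls of Irf9, Isg15, Parp14, Sp100, Xaf1 and Zbp1 were lost when 1 or another library was left out. The genes that did not pass were Herc6 (1.05, edgeR adjusted p 0.0624), Trim25 (0.92), Bst2 (1.29), Eif2ak2 (0.67), Samd9l (0.72), Ifi35 (0.57), Dtx3l (0.21), Uba7 (0.06) and Ifi27 (0.01). For Dtx3l the 95% interval of the difference was -0.12 to 0.53, for Uba7 -0.26 to 0.37 and for Ifi27 -0.75 to 0.76.

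**Figure D3:**
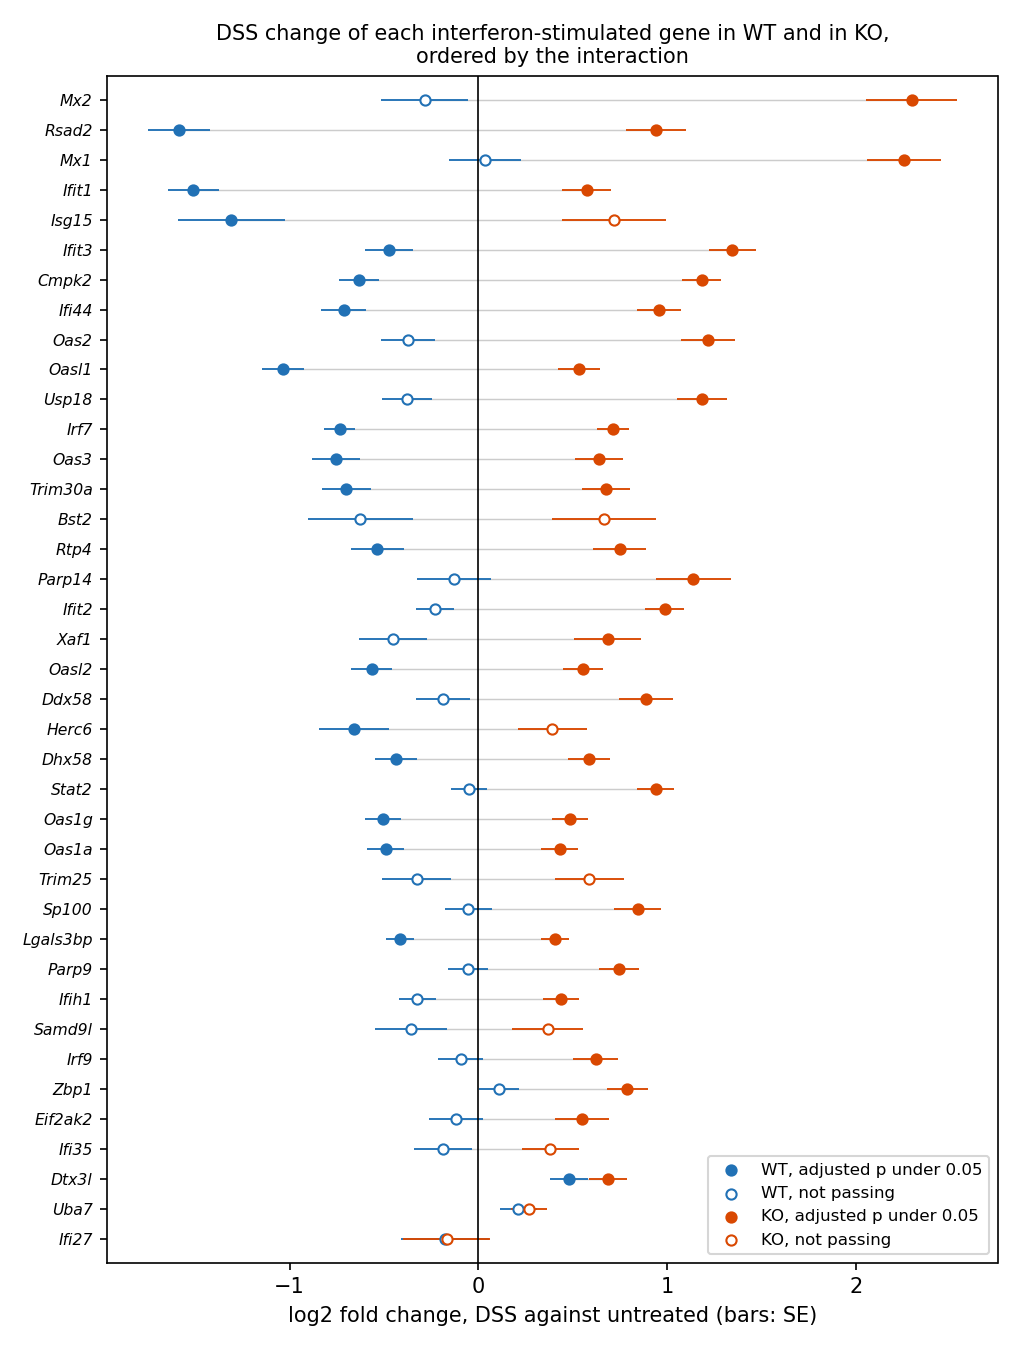
Log2 fold change under DSS of the 39 interferon-stimulated genes in WT (blue) and in KO (orange), with bars of 1 SE, ordered by the interaction from Ifi27 at the bottom to Mx2 at the top. Filled points passed at an adjusted p under 0.05; WT points lie mostly left of 0 and KO points mostly right of it, and Dtx3l is filled on the right in both.

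The 2 responses to DSS share no sample, but their calls come from 1 fit with a shared estimate of spread. Their joint pattern was counted. A fall in WT and a rise in KO, both passing, was seen for 15 of the 39 genes: Cmpk2, Dhx58, Ifi44, Ifit1, Ifit3, Irf7, Lgals3bp, Oas1a, Oas1g, Oas3, Oasl1, Oasl2, Rsad2, Rtp4 and Trim30a. The same pattern was seen in 26 genes of all 12522, or 0.208%, the 15 included. Of the 15, Cmpk2, Ifi44, Irf7, Lgals3bp and Rsad2 kept both calls when any single library was left out, and the others did not. With the leukocyte markers as a covariate, no gene of the 15 kept both calls. A rise in both genotypes was seen for Dtx3l alone of the 39, and for 96 genes, or 0.767%, of all. Ifi44, Irf7, Lgals3bp, Oas1a, Oas1g, Oas3, Rsad2 and Trim30a, 8 genes, passed in all 5 comparisons, 33 passed in at least 1, and Uba7, Trim25, Bst2, Ifi27, Ifi35 and Samd9l, 6 genes, passed in none. All 5 comparisons are built from the same 4 group means, so they are not separate results. The matching shares of all genes were not counted.

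The cytosolic sensors of nucleic acid all rose under DSS in KO, and 1 of the 4 fell in WT. Ddx58 (RIG-I), a helicase that recognizes viral RNA ends, was at 75.8, 76.1 and 67.7 CPM in untreated WT and 53.6, 65.9 and 73.7 in WT under DSS. In KO, Ddx58 was at 58.9, 72.7 and 71.5 CPM without DSS and 124, 114 and 139 with it. The KO samples under DSS were the highest of the 12 and the other 3 groups overlapped. Its change under DSS was 0.89 ± 0.14 in KO (log2 ± SE, edgeR adjusted p 0.00263) and -0.18 ± 0.14 in WT (adjusted p 0.596). Ifih1 (MDA5), which recognizes long double-stranded RNA, was at 232, 222 and 209 CPM in untreated WT and 171, 170.3 and 188 in WT under DSS. In KO, Ifih1 was at 198, 183 and 173 CPM without DSS and 235, 266 and 249 with it. KO under DSS again lay above the rest, and untreated WT came next without overlap with WT under DSS or untreated KO. The DSS change of Ifih1 in KO was 0.44 ± 0.10 (edgeR adjusted p 0.0194), and the interaction was 0.76 ± 0.14 (adjusted p 0.00804). Dhx58 (LGP2), a helicase that modulates both, was at 126, 133 and 134 CPM in untreated WT and 91.5, 109 and 90.6 in WT under DSS. In KO, Dhx58 was at 107, 99.3 and 103 CPM without DSS and 152, 142 and 170.3 with it. All 4 pairs of groups compared were apart for Dhx58, with KO under DSS highest and WT under DSS lowest by its mean. It fell in WT by 0.43 (edgeR adjusted p 0.0304) and rose in KO by 0.59 (adjusted p 0.00821) on the log2 scale. The call of its fall was lost in 9 of 19 alternatives. Zbp1, a sensor of left-handed nucleic acid, differed from the other 3 in that untreated KO was the lowest group. It was at 214, 193 and 176 CPM in untreated WT and 202, 193 and 233 in WT under DSS. In KO, Zbp1 was at 139, 140.0 and 142 CPM without DSS and 258, 228 and 243 with it. Both WT groups overlapped, and KO under DSS overlapped WT under DSS. The difference of untreated KO from untreated WT was -0.47 ± 0.11 (edgeR adjusted p 0.0255), the rise under DSS in KO 0.79 ± 0.11 (adjusted p 0.000665), and the interaction 0.68 ± 0.15 (adjusted p 0.0298).

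Of the transcription factors, all 3 rose under DSS in KO and Irf7 alone fell in WT. Irf7 (ENSMUSG00000025498.13, chr7:141262706-141266481, minus strand), the factor that drives interferon genes in a feedback loop, was at 677, 671 and 633 CPM in untreated WT and 409.6, 404 and 376 in WT under DSS. In KO, Irf7 was at 475, 431 and 434 CPM without DSS and 774, 724 and 698 with it. KO under DSS lay above and WT under DSS below all other samples, and untreated KO stood between WT under DSS and untreated WT. Irf7 fell by 0.73 in WT (edgeR adjusted p 5.31e-05), rose by 0.71 in KO (adjusted p 0.000226) and had an interaction of 1.45 ± 0.12 (adjusted p 1.95e-05). Stat2, a subunit of the interferon-activated complex, was at 179.6, 178 and 172 CPM in untreated WT and 163, 172 and 176 in WT under DSS. In KO, Stat2 was at 126, 140.0 and 117 CPM without DSS and 255, 237 and 243 with it. The 2 WT groups overlapped, untreated KO lay below them and KO under DSS above. Its WT change was -0.05 ± 0.10 (edgeR adjusted p 0.871), its KO change 0.94 ± 0.10 (adjusted p 6.99e-05), and the untreated KO was lower than untreated WT by 0.47 (adjusted p 0.0143). Irf9, the DNA-binding part of that complex, was at 132, 114 and 129.7 CPM in untreated WT and 119, 108 and 126 in WT under DSS. In KO, Irf9 was at 119, 114 and 112 CPM without DSS and 158, 207 and 165 with it. The untreated KO and both WT groups overlapped, and KO under DSS was above all of them. The rise in KO was 0.62 ± 0.12 (edgeR adjusted p 0.00905), and the interaction, 0.72 ± 0.17, passed narrowly (adjusted p 0.0483) and was lost in 13 of 18 alternatives.

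Of the 5 genes of ISGylation, the attachment of Isg15 to other proteins, 1 passed as higher under DSS in KO and 2 as lower in WT. All 5 had a positive change in KO, each with an unadjusted edgeR p under 0.05. The interaction was positive for all 5 and passed for 2. Isg15 (ENSMUSG00000035692.6, chr4:156199424-156200818, minus strand), the modifier itself, was at 29.5, 31.1 and 16.04 CPM in untreated WT and 8.94, 11.8 and 10.1 in WT under DSS. In KO, Isg15 was at 12.1, 21.1 and 19.4 CPM without DSS and 23.6, 28.1 and 34.8 with it. WT under DSS lay below every other sample, and the third untreated WT sample was nearer to untreated KO than to the other untreated WT samples. Isg15 fell in WT by 1.31 (edgeR adjusted p 0.0118) and under DSS was higher in KO by 1.49 (adjusted p 0.00994), while its KO change, 0.72 ± 0.27, did not pass (adjusted p 0.196). Without WT DSS replicate 1 its interaction of 2.03 ± 0.40 (adjusted p 0.0134) became 1.82 with an adjusted p of 0.0516. Usp18, the protease that removes Isg15 and also restrains the interferon receptor, was at 105, 109 and 88.4 CPM in untreated WT and 81.99, 66.8 and 83.96 in WT under DSS. In KO, Usp18 was at 89.4, 78.3 and 67.9 CPM without DSS and 180.3, 179 and 176 with it. KO under DSS was about level among its 3 samples and above all others. Usp18 was the 1 gene of these 5 whose rise under DSS in KO passed, at 1.18 ± 0.13 (edgeR adjusted p 0.000158). Its interaction was 1.56 ± 0.19 (adjusted p 0.000363). Herc6, the ligase that attaches Isg15 in mice, was at 54.1, 53.4 and 33 CPM in untreated WT and 31.5, 25.7 and 31.7 in WT under DSS. In KO, Herc6 was at 40.8, 44.3 and 43.8 CPM without DSS and 52.9, 61.9 and 54.3 with it. WT under DSS was again the lowest group, below every other sample. Herc6 fell in WT by 0.66 (edgeR adjusted p 0.0492), a call lost in 14 of 19 alternatives. Its KO change was 0.39 ± 0.18 (adjusted p 0.314). Trim25, a ubiquitin ligase that acts on Ddx58, and Uba7, the activating enzyme for Isg15, passed in no comparison. Uba7 was at 153 ± 9.54 and 177 ± 5.09 CPM in untreated and DSS-treated WT and at 141 ± 9.40 and 170.3 ± 6.51 in KO, higher under DSS in all samples of both genotypes but with edgeR adjusted p of 0.265 and 0.159. Trim25 ranged from 137 to 324 CPM over the 12 samples.

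The IFIT genes, whose proteins bind viral RNA and lie side by side on chromosome 19, were among the most changed. Ifit1 (ENSMUSG00000034459.8, chr19:34640871-34650009, plus strand), which recognizes viral RNA caps, was at 236, 173 and 172 CPM in untreated WT and 64.9, 65.5 and 73.5 in WT under DSS. In KO, Ifit1 was at 197, 174 and 164 CPM without DSS and 259, 287 and 249 with it. WT under DSS lay far below every other sample, KO under DSS above them, and the 2 untreated groups overlapped. Ifit1 fell in WT by 1.51 (edgeR adjusted p 5.43e-06), rose in KO by 0.57 (adjusted p 0.0232) and had an interaction of 2.08 ± 0.19 (adjusted p 4.52e-05). Ifit2 was at 219, 193 and 193 CPM in untreated WT and 170.5, 174 and 171 in WT under DSS. In KO, Ifit2 was at 227, 235 and 193 CPM without DSS and 465, 407 and 426 with it. Again WT under DSS lay below and KO under DSS above all other samples, and the untreated groups overlapped. Its rise in KO was 0.99 ± 0.10 (edgeR adjusted p 7.08e-05), and its WT change of -0.23 ± 0.10 did not pass (adjusted p 0.256). Ifit3, which stabilizes RNA binding by Ifit1, was at 67.7, 59.6 and 63.1 CPM in untreated WT and 46.8, 40.98 and 49.5 in WT under DSS. In KO, Ifit3 was at 63.6, 61.5 and 54.5 CPM without DSS and 156, 164 and 136 with it. Here too the untreated groups overlapped, WT under DSS was lowest and KO under DSS highest without overlap. Ifit3 fell in WT by 0.47 (edgeR adjusted p 0.0395), a call lost in 15 of 19 alternatives, and rose in KO by 1.35 (adjusted p 3.28e-05). Since 51.2% of the 50-base words of Ifit3 also occur in its copy Ifit3b, reads could be split between both. None of the 3 IFIT genes passed between the untreated genotypes, with edgeR log2 differences of -0.12, 0.11 and -0.08 for Ifit1, Ifit2 and Ifit3 and 95% intervals of -0.42 to 0.18, -0.12 to 0.35 and -0.37 to 0.21.

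**Figure D4:**
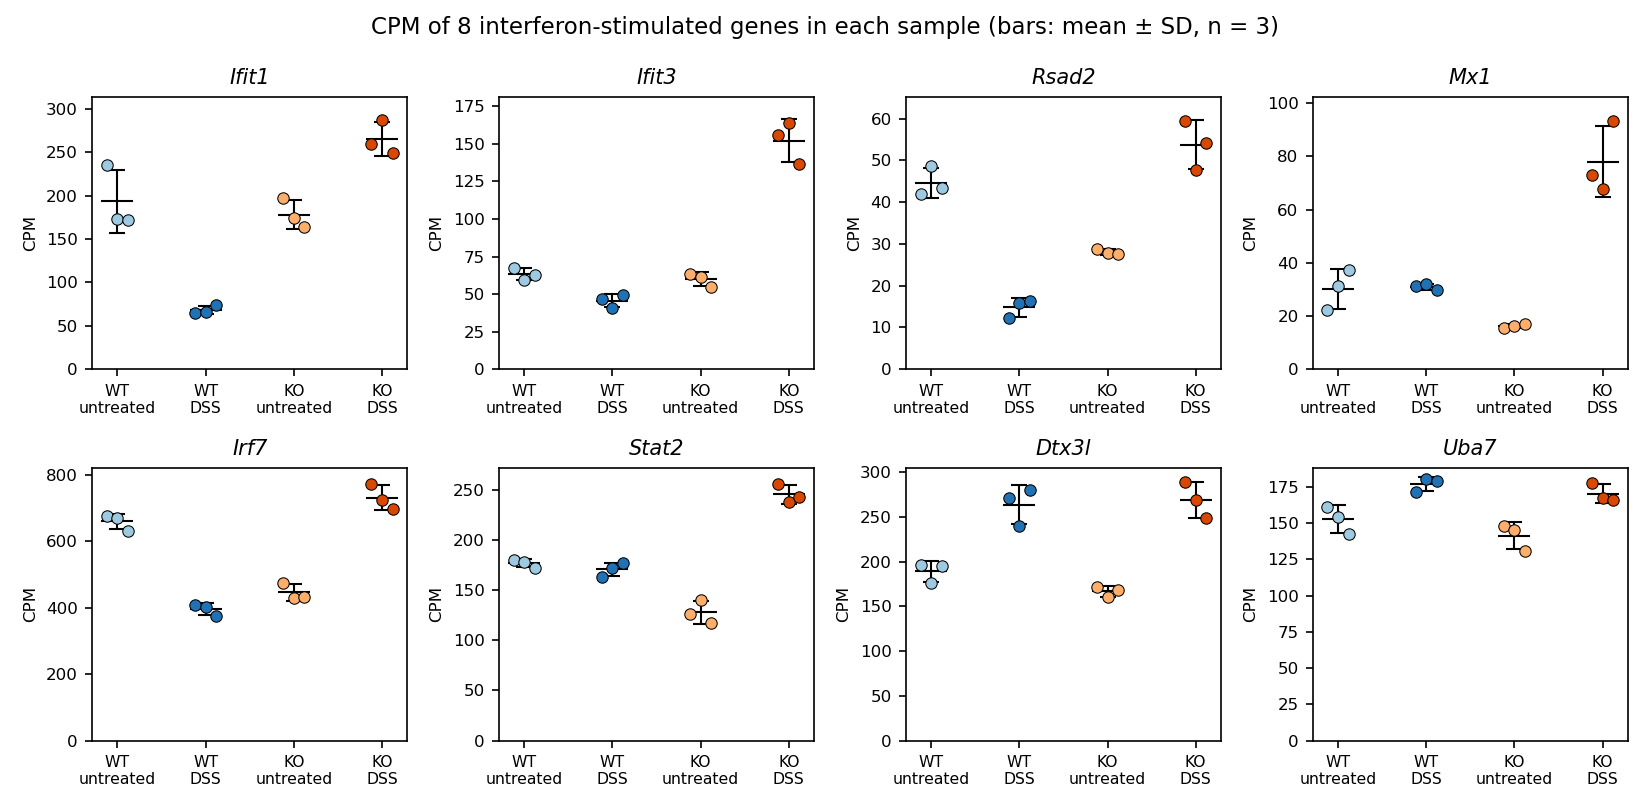
CPM in each of the 12 samples (points) with mean and SD (bars, n = 3) for Ifit1, Ifit3, Rsad2, Mx1, Irf7, Stat2, Dtx3l and Uba7, each on its own linear axis from 0. KO under DSS is the highest group in the first 6; in Dtx3l and Uba7 both genotypes are higher under DSS.

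The Mx genes, coding for dynamin-like GTPases that block viral nucleocapsids, combined no passing change under DSS in WT, a low level in untreated KO and the largest rise of the 39 under DSS in KO. C57BL/6 mice are known to carry a defective Mx1 allele, and the annotation lists Mx2 as a polymorphic pseudogene. Mx1 (ENSMUSG00000000386.13, chr16:97447035-97462907, minus strand) was at 22.3, 31.3 and 37.3 CPM in untreated WT and 31.2, 32.1 and 29.8 in WT under DSS. In KO, Mx1 was at 15.6, 16.3 and 17.1 CPM without DSS and 73.03, 67.9 and 93.2 with it. The WT groups overlapped, untreated KO lay below and KO under DSS above every other sample. Its change under DSS was 0.04 ± 0.19 in WT (edgeR adjusted p 0.961, 95% interval -0.40 to 0.47) and 2.26 ± 0.20 in KO (adjusted p 2.09e-05). Mx2 (ENSMUSG00000023341.13, chr16:97535308-97560900, plus strand) was at 17.02, 19.5 and 13.9 CPM in untreated WT and 10, 16.5 and 14.8 in WT under DSS. In KO, Mx2 was at 6.45, 7.43 and 5.57 CPM without DSS and 33.2, 34.9 and 27.7 with it. As for Mx1, untreated KO lay below and KO under DSS above every other sample, and the WT groups overlapped. Untreated KO was lower than untreated WT by 1.37 for Mx2 (edgeR adjusted p 0.00493) and by 0.89 for Mx1 (adjusted p 0.0201). Of the 50-base words of Mx1, 4.37% also occur in another gene.

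The OAS genes, whose active members make short oligoadenylates that switch on RNase L, all rose under DSS in KO, and 5 of the 6 fell in WT. All 6 lie on chromosome 5, Oasl2 and Oasl1 in 1 pair and Oas2, Oas3, Oas1g and Oas1a in a row. For each of them all 4 pairs of groups compared were apart, though the WT groups of Oas2 only barely, at 88.51 against 88.50 CPM. Oas1a (ENSMUSG00000052776.10, chr5:120896256-120907521, minus strand) was at 468, 409 and 369 CPM in untreated WT and 295, 298 and 293 in WT under DSS. In KO, Oas1a was at 296, 323 and 284 CPM without DSS and 414, 407 and 397 with it. KO under DSS fell inside the range of untreated WT, and the other 2 groups overlapped each other below. Oas1a fell in WT by 0.49 (edgeR adjusted p 0.00586) and rose in KO by 0.43 (adjusted p 0.0215). Oas1g was at 238, 253 and 207 CPM in untreated WT and 159, 166 and 166 in WT under DSS. In KO, Oas1g was at 152, 156 and 153 CPM without DSS and 216, 209 and 219 with it. KO under DSS again lay inside the range of untreated WT, and the 2 lower groups stood close together. Of the 50-base words of Oas1g 45.7%, and of those of Oas1a 57.6%, also occur in other genes, so reads of such copies could be split. Oas1g fell in WT by 0.51 and rose in KO by 0.48 (edgeR adjusted p 0.00409 and 0.0104). Oas3 was at 324, 318 and 258 CPM in untreated WT and 188, 176 and 170.4 in WT under DSS. In KO, Oas3 was at 203, 179 and 176 CPM without DSS and 343, 253 and 274 with it. Of the KO samples under DSS, 1 lay above the range of untreated WT, 1 inside it and 1 below it. Oas3 fell in WT by 0.75 (edgeR adjusted p 0.00177), rose in KO by 0.64 (adjusted p 0.0105) and was lower in untreated KO than untreated WT by 0.69 (adjusted p 0.00667). Oas2 was the 1 OAS gene whose WT change did not pass. It was at 95.9, 124 and 88.5 CPM in untreated WT and 88.5, 73.1 and 76.3 in WT under DSS. In KO, Oas2 was at 77.7, 74.7 and 69.8 CPM without DSS and 185, 149 and 183 with it. KO under DSS stood well above the other groups, untreated KO and WT under DSS overlapped, and the untreated and DSS-treated WT groups met at 88.5 CPM. Its changes were -0.37 ± 0.14 in WT and 1.22 ± 0.14 in KO (edgeR adjusted p 0.169 and 0.000234).

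The OAS-like genes followed. Oasl1, known to restrain translation of Irf7, was at 169, 180.4 and 136 CPM in untreated WT and 83.2, 78.8 and 74.7 in WT under DSS. In KO, Oasl1 was at 131, 132 and 133 CPM without DSS and 193, 185 and 194 with it. WT under DSS was below and KO under DSS above every other sample, with untreated KO just below untreated WT. Oasl1 fell in WT by 1.03 (edgeR adjusted p 3.56e-05), rose in KO by 0.53 (adjusted p 0.0142) and had an interaction of 1.57 ± 0.16 (adjusted p 6.76e-05). Oasl2 was at 657, 620.1 and 519 CPM in untreated WT and 439, 408 and 367 in WT under DSS. In KO, Oasl2 was at 422, 471 and 461 CPM without DSS and 634, 632 and 722 with it. WT under DSS and untreated KO overlapped below untreated WT, and KO under DSS overlapped untreated WT. The fall in WT was 0.57 and the rise in KO 0.56 on the log2 scale (edgeR adjusted p 0.00421 and 0.00905).

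Of the other effectors, Rsad2 and Cmpk2 are neighbours on chromosome 12, read in opposite directions with 12751 bases between them. Rsad2 (viperin, ENSMUSG00000020641.14, chr12:26442746-26456452, minus strand), which makes a chain-terminating nucleotide, was at 41.9, 48.6 and 43.3 CPM in untreated WT and 12.3, 15.8 and 16.4 in WT under DSS. In KO, Rsad2 was at 28.8, 27.8 and 27.5 CPM without DSS and 59.4, 47.8 and 54.1 with it. WT under DSS lay below all other samples and untreated KO between it and untreated WT, while 1 KO sample under DSS was within the range of untreated WT. Rsad2 fell in WT by 1.59 (edgeR adjusted p 2.24e-05), rose in KO by 0.94 (adjusted p 0.00375) and without DSS was lower in KO by 0.67 (adjusted p 0.03). Cmpk2, a mitochondrial nucleotide kinase, was at 95.6, 93.3 and 99.9 CPM in untreated WT and 67.1, 59.1 and 60.04 in WT under DSS. In KO, Cmpk2 was at 71.6, 77.6 and 69.5 CPM without DSS and 160.0, 173 and 164 with it. All 4 pairs of groups compared were apart, with the KO samples under DSS highest. The fall in WT was 0.63 and the rise in KO 1.18 (edgeR adjusted p 0.00164 and 2.15e-05), and the rise in KO kept its call in all 19 alternatives. Ifi44, a cytoplasmic GTP-binding protein, was at 185, 187 and 162 CPM in untreated WT and 111, 101 and 114 in WT under DSS. In KO, Ifi44 was at 102, 131 and 108 CPM without DSS and 235, 201 and 228 with it. KO under DSS was highest, untreated WT second, and the other groups overlapped. Ifi44 fell in WT by 0.71 and rose in KO by 0.96 (edgeR adjusted p 0.00163 and 0.000326). Trim30a, a ubiquitin ligase known to dampen Toll-like receptor signalling to NF-kB, was at 170.1, 164 and 133 CPM in untreated WT and 107, 86.2 and 94.2 in WT under DSS. In KO, Trim30a was at 116, 108 and 92.8 CPM without DSS and 166, 174 and 167 with it. KO under DSS overlapped untreated WT, and WT under DSS overlapped untreated KO. Trim30a fell in WT by 0.70 and rose in KO by 0.68 (edgeR adjusted p 0.00327 and 0.00754).

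Lgals3bp, a secreted glycoprotein that binds galectins, had the highest level per kilobase of the 39. It was at 1222, 1213 and 1096 CPM in untreated WT and 873, 914 and 858 in WT under DSS. In KO, Lgals3bp was at 857, 873 and 840.3 CPM without DSS and 1122, 1146 and 1138 with it. Untreated WT and KO under DSS overlapped, as did WT under DSS and untreated KO. Lgals3bp fell in WT by 0.42 and rose in KO by 0.41, and untreated KO was lower than untreated WT by 0.46 (edgeR adjusted p 0.0028, 0.00657 and 0.00302). Rtp4, a chaperone of membrane receptors, was at 148, 146 and 113 CPM in untreated WT and 91.5, 94.3 and 94.9 in WT under DSS. In KO, Rtp4 was at 105, 130.0 and 112 CPM without DSS and 169, 183 and 231 with it. WT under DSS lay below and KO under DSS above all other samples. Rtp4 fell in WT by 0.53 and rose in KO by 0.75 (edgeR adjusted p 0.0353 and 0.00754). The call of its fall was lost in 9 of 19 alternatives. Sp100, a scaffold of nuclear bodies, was at 88.2, 102 and 82.7 CPM in untreated WT and 88.5, 86.1 and 88.03 in WT under DSS. In KO, Sp100 was at 79.8, 89.4 and 78.9 CPM without DSS and 141, 171 and 133 with it. KO under DSS stood above the rest and the other groups overlapped. Its WT change was -0.05 ± 0.12 and its KO change 0.84 ± 0.12 (edgeR adjusted p 0.901 and 0.00139). Xaf1, a protein that counters an inhibitor of apoptosis, was at 45.5, 39.5 and 35.9 CPM in untreated WT and 27.7, 25.9 and 34.8 in WT under DSS. In KO, Xaf1 was at 27.01, 35.6 and 28.7 CPM without DSS and 45.2, 45.3 and 56.4 with it. KO under DSS and untreated WT overlapped, and so did the 2 lower groups. Xaf1 rose in KO by 0.69 (edgeR adjusted p 0.0441), a call that was lost with the replicate number as a block (adjusted p 0.0792). Eif2ak2 (PKR), a kinase that halts translation on double-stranded RNA, was at 73.3, 74.2 and 58.3 CPM in untreated WT and 60.9, 62.5 and 66.2 in WT under DSS. In KO, Eif2ak2 was at 70.4, 57.9 and 53.01 CPM without DSS and 83.8, 98.6 and 83.1 with it. KO under DSS lay above the other samples, and the rest overlapped. Its rise in KO, 0.55, also passed narrowly (edgeR adjusted p 0.0468) and was lost with the block (adjusted p 0.0593).

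The 4 remaining effectors, Bst2 (tetherin, which holds budding virus at the cell surface), Ifi27, Ifi35 and Samd9l, passed in no comparison. Their means ran from 22.2 to 37.1 CPM for Bst2, 27.98 to 45.8 for Ifi27, 40.9 to 58.3 for Ifi35 and 210.3 to 311 for Samd9l. In each of them WT under DSS had the lowest mean. Ifi27 was the 1 gene of the 39 whose log2 change under DSS in KO was below 0, at -0.17 ± 0.23 (edgeR adjusted p 0.812).

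The ADP-ribosyl transferases Parp9 and Parp14 and the ubiquitin ligase Dtx3l, which pairs with Parp9, lie together on chromosome 16, and all 3 rose under DSS in KO. Parp9 was at 351, 272 and 279 CPM in untreated WT and 304, 288 and 276 in WT under DSS. In KO, Parp9 was at 239, 250.4 and 221 CPM without DSS and 393, 406 and 393 with it. The WT groups overlapped, untreated KO was lowest and KO under DSS above all others. Its KO change was 0.75 ± 0.11 and its interaction 0.80 ± 0.15 (edgeR adjusted p 0.00101 and 0.0104). Dtx3l (ENSMUSG00000049502.15, chr16:35926511-35939151, minus strand) was at 197, 176 and 195 CPM in untreated WT and 271, 239.8 and 281 in WT under DSS. In KO, Dtx3l was at 172, 160.1 and 169 CPM without DSS and 289, 269 and 249 with it. DSS samples of both genotypes overlapped each other and lay above the untreated samples of both. Dtx3l rose in WT by 0.48 and in KO by 0.69 (edgeR adjusted p 0.00854 and 0.00127), the 1 gene of the list to rise in WT. Parp9 and Dtx3l start on opposite strands with 458 exonic bases in common, which libraries without strand information cannot assign to either. Parp14 was at 133, 133 and 130.5 CPM in untreated WT and 104, 99.3 and 159 in WT under DSS. In KO, Parp14 was at 95.8, 82.1 and 69.3 CPM without DSS and 228, 175 and 142 with it. Untreated KO was lowest, and the third WT sample under DSS lay within the range of KO under DSS. Its KO change was 1.14 ± 0.20 (edgeR adjusted p 0.00429), and its interaction, 1.27 ± 0.28 (adjusted p 0.0274), was lost in 10 of 18 alternatives.

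The genes were also divided by promoter class, as a description. The interaction passed for 11 of the 13 genes with an ISRE match (median 1.29), 10 of the 16 without one (median 0.98) and 9 of the 10 with no window (median 1.28). It passed as positive for 30 of the 39 as a whole and for 1.17% of all tested genes. Shares of all genes by promoter class were not counted, and the difference between the classes was not tested. Cmpk2 and Irf7, with no match in their windows, had interactions of 1.82 and 1.45, and Bst2 and Eif2ak2, with a match, of 1.29 and 0.67 that did not pass.

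The signalling genes around the interferon-stimulated genes were taken as a second list. A list of 53 pathway genes, of which 31 were tested, gave 6 that rose and 0 that fell under DSS in WT by edgeR (10 and 0 at an unadjusted p under 0.05, 6 and 0 by DESeq2), with a median log2 change of 0.15. In KO 6 rose and 0 fell (8 and 0 unadjusted, 7 and 0 by DESeq2), with a median of 0.25. By edgeR, 2.80% of all tested genes rose in WT and 1.88% in KO. Of the 20 ligands listed, 17, among them Ifnb1 and every type I interferon but Ifnk, had no read in any library, which at 3 reads allows up to 0.356 to 0.529 CPM in a library. Ifnk had 34 reads in all, at most 10 in a sample, and the type III interferon Ifnl3 had 1. Ifng, the type II interferon, had 93 reads, with 0 to 4 in untreated WT, 2 to 7 in WT under DSS, 7 to 13 in untreated KO and 2 to 27 in KO under DSS, and did not pass. The receptor subunit Ifnar1 was at 49.3, 47.8, 60.7 and 60.9 CPM, Ifnar2 at 0.688, 2.67, 2.68 and 3.73, and the type III receptor subunit Ifnlr1 at 25.6, 21.7, 15.2 and 15.01, in WT without and with DSS and in KO without and with DSS. None of the 6 receptor genes listed passed in any of the 5 comparisons by edgeR.

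Socs1, Socs3, Irf1 and Irf8 were the 4 pathway genes that rose under DSS in both genotypes. The cytokine signalling inhibitors Socs1 and Socs3 rose in WT by 1.67 and 2.19 and in KO by 1.52 and 1.37 (edgeR adjusted p 0.00785, 1.24e-05, 0.0212 and 0.00179). Irf1, a factor induced strongly by interferon gamma, rose by 0.52 and 0.53, and Irf8 by 0.59 and 0.91. Tmem173 (STING), the adaptor of DNA sensing, rose in WT by 1.25 (edgeR adjusted p 0.00545) and was 0.48 ± 0.24 in KO (adjusted p 0.372). Myd88, an adaptor of Toll-like receptors, rose in KO by 0.61 (edgeR adjusted p 0.0118). In untreated KO, Tlr3, a receptor for double-stranded RNA, and Irf8 were lower than in untreated WT by 0.48 and 0.39 (edgeR adjusted p 0.0438 and 0.0458). Irf5 was at 0 to 0.308 CPM in untreated WT, at or below 3 reads, and at 2.15 CPM in WT under DSS and 1.81 in untreated KO, both of which passed as higher (edgeR adjusted p 0.0198 and 0.045). Under DSS, Socs3 was lower in KO by 0.79 (adjusted p 0.0483). The interaction passed for 0 of the 31 by edgeR (7 at an unadjusted p under 0.05, 2 by DESeq2).

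The interferon-gamma-inducible GTPases, which defend against intracellular parasites and bacteria, were taken as a list for comparison. Of 10 listed, 8 rose and 0 fell under DSS in WT by edgeR (9 and 0 at an unadjusted p under 0.05, 9 and 0 by DESeq2), with a median log2 change of 0.72, and 10 rose in KO, with a median of 1.40. Of all tested genes, 2.80% rose in WT and 1.88% in KO. Tgtp1 was at 87.8 and 300.1 CPM in WT without and with DSS and at 85.4 and 304 in KO, and rose by 1.77 and 1.83 (edgeR adjusted p 0.000129 and 0.000264). Gbp2 rose more in WT, by 1.87 against 1.03 in KO, with an interaction of -0.84 ± 0.18 (edgeR adjusted p 0.0227). Irgm1, Irgm2 and Gbp3 rose more in KO, with interactions of 0.60, 0.73 and 1.00 (edgeR adjusted p 0.0208, 0.0434 and 0.0158). The interaction was positive for 9 of the 10, with a median of 0.67, as it was for all 39 type I genes. Under DSS all 10 had a higher level in KO than in WT, with a median log2 difference of 0.62. By edgeR 4 of them passed, against 1.77% of all genes. None of the 10 fell in WT, where 17 of the 39 type I genes did, and the difference between the 2 lists was not tested.

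**Figure D5:**
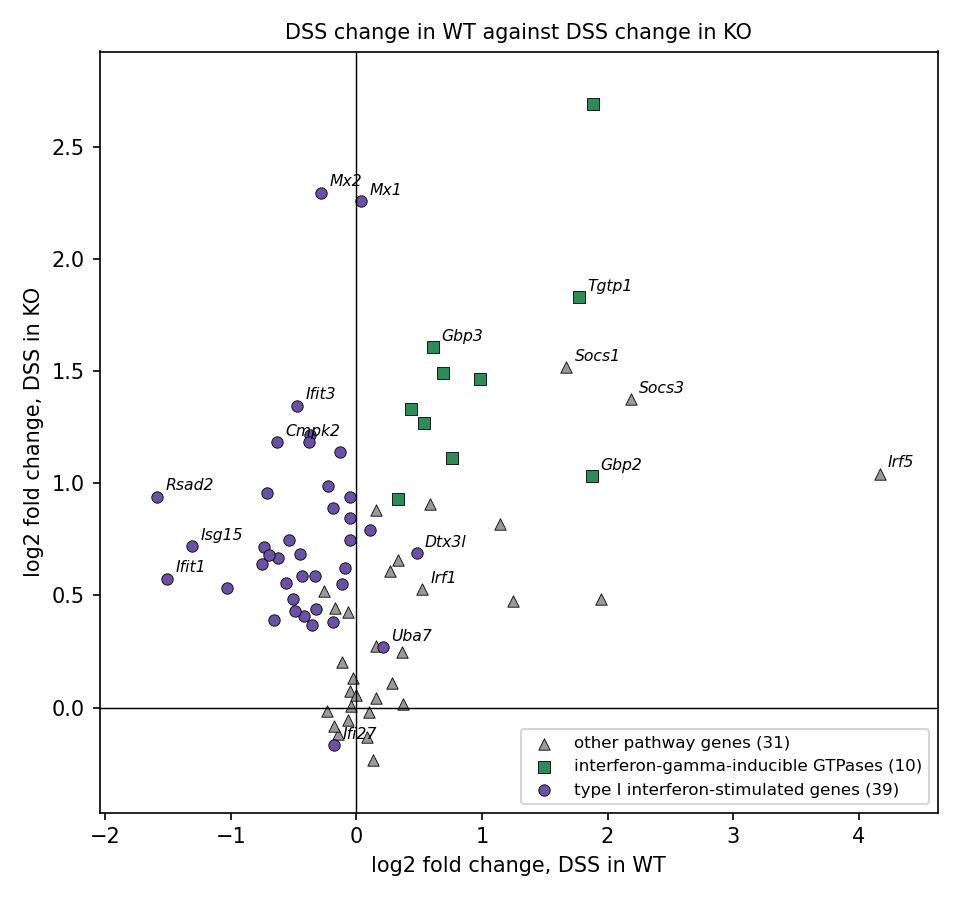
Log2 fold change under DSS in WT against that in KO, 1 axis each, for the 39 interferon-stimulated genes (circles), 10 interferon-gamma-inducible GTPases (squares) and 31 tested pathway genes (triangles). Most circles lie left of 0 and above it, and all squares lie to the right and above.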

How the data were processed

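RNA of 12 epithelial samples, 3 in each of 4 groups, was made into cDNA libraries with SMART-seq2 and Nextera XT from 2 ng of total RNA, without molecular identifiers, per the labels' protocols. Each deposited file holds 1 sample's raw count of reads per Ensembl gene, and the submitters' processing notes name STAR 2.5.2b, featureCounts 1.5.0 and GRCm38; the annotation release and the strand setting are not given in the sources used here. The 39 genes and all gene lists were chosen with earlier results of these data known. Of 46517 identifiers, 46005 matched GENCODE M21 without their version.

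Genes that passed edgeR's filterByExpr, 12522 with 99.8% of all counts, were fitted with edgeR 4.0.16 (R 4.3.3; TMM scaling, quasi-likelihood F test, 1 mean per group over 12 samples). P-values were adjusted by Benjamini-Hochberg over the 12522 genes and called at 0.05 in 5 comparisons. SE is the log2 fold change divided by the root of F, and 95% intervals are from the t distribution with 8 residual degrees of freedom. CPM used TMM-scaled totals, and RPKM divides CPM by exonic length. DESeq2 1.42.0, other scalings and filters, the replicate number as a block, the leukocyte markers as a covariate, the compared groups alone and leaving out each sample were the alternatives. The procedure was first run on simulated counts, whose outcome is not reported here and is not used as support. Replicates of a group differed by more than sampling noise (chi-square per degree of freedom 6.51 to 27.0), so none was merged. Depth limits and intervals of counts cover counting error only.

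Replicate numbers in the sample titles, which the labels do not tie to an animal or day, were checked by the correlation of same-numbered samples' deviations from group means. It was 0.204, 0.106 and 0.127 for untreated KO and KO under DSS, all over 0.1, so the blocked value is given where it ends a call in that comparison. In the other comparisons it was not over 0.1 for every number.

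All 39 genes are named. Values per sample and tests are given for those that passed in any comparison at a mean level of 3 log2 CPM or more, and for a gene that alone in its subclass passed or failed. Of the pathway list, genes that passed and the ligands are named; the values of a pathway gene and a marker gene of these lists are not reported here. The 8 genes outside the lists with the highest correlation to the mean standardized profile of the 39 were named as most alike. Promoters, from RefSeq on GRCm38.p6, matched 29 of the 39 by symbol.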

Additional observations from a re-analysis of the deposited data

Results flagged for a closer look

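The change under DSS differed between KO and WT by the interaction test of edgeR (adjusted p under 0.05 over all genes) for 30 of the 39 interferon-stimulated genes. The value given is the log2 change under DSS in KO minus that in WT, which was positive for each of them. The 10 highest were Mx2 2.58, Rsad2 2.53, Mx1 2.22, Ifit1 2.08, Isg15 2.03, Ifit3 1.82, Cmpk2 1.82, Ifi44 1.67, Oas2 1.59 and Oasl1 1.57. The next 10 were Usp18 1.56, Irf7 1.45, Oas3 1.40, Trim30a 1.38, Rtp4 1.28, Parp14 1.27, Ifit2 1.22, Xaf1 1.14, Oasl2 1.12 and Ddx58 1.07. The lowest 10 were Dhx58 1.02, Stat2 0.99, Oas1g 0.99, Oas1a 0.92, Sp100 0.90, Lgals3bp 0.82, Parp9 0.80, Ifih1 0.76, Irf9 0.72 and Zbp1 0.68. Of these, Irf9, Zbp1, Parp14 and Xaf1 had adjusted p nearest to 0.05. With 3 samples in each group, no sample was tested for standing apart.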

How the results depend on the processing

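Of 2250 values, 1 for each call made among the 39 genes under each alternative, 1949 kept the call, 301 kept direction and lost it, and none turned; results first not called are not among them. The calls kept in all alternatives were 2 of 18 for DSS in WT (Oasl1 and Oasl2), 8 of 31 for DSS in KO, 0 of 12 for KO against WT untreated, 9 of 29 for KO against WT under DSS and 23 of 30 for the interaction. In that order of comparisons, leaving out 1 sample left 13 to 17, 21 to 31, 6 to 15, 18 to 29 and 25 to 31 of the 39 called, and 483 to 958, 235 to 710, 212 to 725, 160 to 566 and 152 to 350 of all genes. With the leukocyte markers as a covariate, 3, 8, 0, 9 and 26 of the 39 and 69, 81, 21, 107 and 141 of all genes were called; the cause was not tested. DESeq2 called 800 genes for DSS in KO, 790 for KO against WT untreated, 662 for KO against WT under DSS and 368 for the interaction, and edgeR with no filter on low counts called 776, 703, 642 and 356. With the 2 compared groups alone, 467, 599, 195 and 540 of all genes and 12, 30, 4 and 29 of the 39 were called in the first 4 comparisons; the cause was not tested. With the replicate number as a block, 14, 29, 11, 27 and 26 of the 39 and 695, 409, 345, 290 and 186 of all genes were called, and beside Eif2ak2 and Xaf1 no rise under DSS in KO was lost. Outside that comparison the samples share only a number, and correlations of same-numbered samples were 0.01 to 0.13 for DSS in WT and -0.18 to -0.01 between genotypes.

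With 3 samples a group and totals of 5595909 to 8117740 reads, the 3 of the 39 with the lowest mean CPM (Mx2, Isg15 and Bst2) had the largest standard errors of the interaction, and differences that did not pass are not shown to be absent.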

Other observations

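Outside the lists, 8 genes followed the 39 most closely over the 12 samples, by the Pearson correlation of their log2 CPM with the mean standardized profile of the 39 among 11201 genes. They were Phf11d (0.940), Trim34a (0.923), Ifit3b (0.923), Tor3a (0.920), Parp11 (0.919), Lgals9 (0.917), Pck1 (0.915) and Shisa5 (0.908). Ifit3b is the near copy of Ifit3 and lies beside it, Lgals9 encodes a galectin, and Pck1 encodes the enzyme that commits oxaloacetate to gluconeogenesis. Samples of a group share genotype and treatment, and these correlations are descriptions without a test.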
